A study of Mus musculus with 12 samples.

Results

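The 31 genes described here carry the identity and signalling programme of microglia and related myeloid cells. They include transcription factors, growth factor, chemokine and nucleotide receptors, and surface and secreted identity proteins. The others are activating and inhibitory receptors with their adaptors, leukocyte adhesion, cytoskeleton and signalling genes, and lysosomal and endotoxin receptor genes. All were taken from a list of gene symbols and matched to the Ensembl identifiers of the deposited tables, where 31 of 31 were found among 41388 genes. Some of them were placed on the list because their counts were much lower in isolated astrocytes than in the remaining brain cells. Their difference between those fractions is therefore given as a description, without a test. All 31 passed the filter on low counts in each comparison.

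The libraries came from brains of Bmal fl/fl mice on a C57BL\6 background, in which the gene of the circadian clock factor BMAL1 (Arntl) is floxed. Mice with ALDH1L1-CreERT2, a tamoxifen-inducible Cre driven by a gene of astrocytes, are the astrocyte knockouts (aKO), and mice without Cre are the wild types (WT). At 2 months of age, mice with and without Cre received tamoxifen by gavage (5 days, 2 mg daily), and brains were collected when they were 7 months old. After collagenase digestion, ACSA-2 beads (against an astrocyte surface epitope) retained the astrocyte fraction, and the cells that passed formed the flowthrough. Astrocytes were sequenced from 3 WT (animals 201, 202 and 265) and 5 aKO mice (203, 205, 208, 221 and 222). Flowthrough was sequenced from 2 WT (201 and 202) and 2 aKO mice (203 and 205), so 4 animals gave both fractions. The study asked how loss of BMAL1 in astrocytes alters their expression.

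Several facts of the libraries bear on the results. For animal 202 the astrocyte library has a WT title but a knockout genotype field; the title was followed, and results with the other label are given where they differ. The titles of all 4 flowthrough libraries carry a letter b of unstated meaning, which cannot be told apart from the fraction. Total counts ranged from 21816637 to 62655238 in astrocytes and from 33019572 to 53868165 in flowthrough. The gene-level count of Arntl was not lower under the aKO label: it was 2.99, 7.52 and 2.23 CPM in WT astrocytes and 9.43, 17.5, 8.78, 10.9 and 5.91 CPM in aKO astrocytes. A count over the whole gene does not isolate the floxed part, so it does not check the deletion, and WT and aKO below mean the labels. Counts of Xist, the RNA of X inactivation in females, were 2044 and 972 in aKO 221 and 222 and at most 46 elsewhere. Of 12 astrocyte markers, 10 were higher in the astrocyte fraction by edgeR's test, and so were 8 of 10 oligodendrocyte markers and 4 of 8 neuron markers. Nothing in the labels says how many cells each library held, and in bulk RNA fewer cells of a type and less RNA per cell cannot be told apart.

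Microglia are the resident macrophages of the brain parenchyma. They arise from yolk sac progenitors under the control of the factor PU.1 (Spi1) and need signals through the receptor CSF1R to survive. Ligand recognition by receptors such as TREM2 is passed on by the adaptor TYROBP, whose tyrosine motifs recruit the kinase SYK. Receptors with inhibitory motifs such as LAIR1 recruit phosphatases. P2RY12, TMEM119, SALL1 and Siglec-H separate microglia from most blood-derived myeloid cells, whereas CD45 (Ptprc), CD11b (Itgam), FCER1G and TYROBP are shared with neutrophils, monocytes and border macrophages.

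The promoters of the members were searched for letters of the PU.1 site, because PU.1 is itself a member. RefSeq windows of GRCm38.p6, from 250 bases before to 50 bases after the gene start, were given for 22 of the 31. The 6 letters GAGGAA, read on either strand (TTCCTC on the other), occurred in 15 of these 22 windows, or 68.2%. They occurred in 31.3% of the windows of 27025 genes. The longer form GAGGAAGT occurred in 2 of 22 (Ctss and Havcr2; 9.09%, against 3.69% of all genes), and contains the shorter one. A match is a description of letters and not of binding, and its absence says only that those letters are not in this window. Shown are the 150 bases before the start of 6 members with the letters and of Cx3cr1, the gene of the fractalkine receptor, as a window without them. Each is written 5′ to 3′ on the strand of the gene, with the 6 letters in capitals. The coordinates are, in this order, chr17:48346251-48346400 (plus strand), chr7:4063205-4063354 (minus), chr3:59210883-59211032 (minus), chr7:128062490-128062639 (plus), chr11:46454781-46454930 (plus), chr11:34783906-34784055 (minus) and chr9:120068297-120068446 (minus).
Trem2: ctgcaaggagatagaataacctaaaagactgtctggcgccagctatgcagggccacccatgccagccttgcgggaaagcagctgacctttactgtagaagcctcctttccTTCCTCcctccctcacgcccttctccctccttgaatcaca
Lair1: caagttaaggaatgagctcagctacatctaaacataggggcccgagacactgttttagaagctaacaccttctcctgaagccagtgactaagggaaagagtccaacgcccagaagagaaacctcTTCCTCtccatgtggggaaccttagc
P2ry13: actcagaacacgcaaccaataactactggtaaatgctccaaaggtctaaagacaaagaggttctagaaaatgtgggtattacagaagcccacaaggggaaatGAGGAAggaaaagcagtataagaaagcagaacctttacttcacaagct
Itgam: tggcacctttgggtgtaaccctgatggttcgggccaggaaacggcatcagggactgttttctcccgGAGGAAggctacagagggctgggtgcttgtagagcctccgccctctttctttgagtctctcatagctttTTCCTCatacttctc
Havcr2: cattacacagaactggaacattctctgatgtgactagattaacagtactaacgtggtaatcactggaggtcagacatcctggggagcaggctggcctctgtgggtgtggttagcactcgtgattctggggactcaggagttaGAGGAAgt
Dock2: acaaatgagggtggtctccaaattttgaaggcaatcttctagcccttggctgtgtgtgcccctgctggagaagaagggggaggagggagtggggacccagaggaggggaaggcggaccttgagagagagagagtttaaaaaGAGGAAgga
Cx3cr1: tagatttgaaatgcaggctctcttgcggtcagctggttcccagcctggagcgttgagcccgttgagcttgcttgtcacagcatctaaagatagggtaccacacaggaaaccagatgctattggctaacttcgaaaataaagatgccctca

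Itgam holds the letters at 2 places in the printed stretch, once on each strand. The others with a match hold them at 1 place, which begins at -40 from the gene start in Trem2, -26 in Lair1, -48 in P2ry13, -8 in Havcr2 and -9 in Dock2, where -1 is the base before the start. Trem2 encodes a lipid-sensing receptor, Lair1 an inhibitory collagen receptor, Havcr2 the checkpoint receptor TIM-3 and Dock2 an activator of the GTPase RAC.

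In flowthrough the members were abundant. Together they took 2.96% and 1.99% of all counts in WT 201 and WT 202, and 2.00% and 1.44% in aKO 203 and aKO 205. In the 8 astrocyte libraries they took between 0.0858% and 0.163%, with a mean of 0.123% ± 0.0261 (SD, n = 8). No astrocyte library came near the lowest flowthrough library. Levels of single genes are given below as CPM (counts scaled to the library's size), adjusted with TMM factors that correct for differences in library composition. By gene, the mean CPM ranged from 32.1 (Spi1) to 5197 (Ctss) in flowthrough, and 7 of the 31 had a mean of at least 1000.

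**Figure D1:**
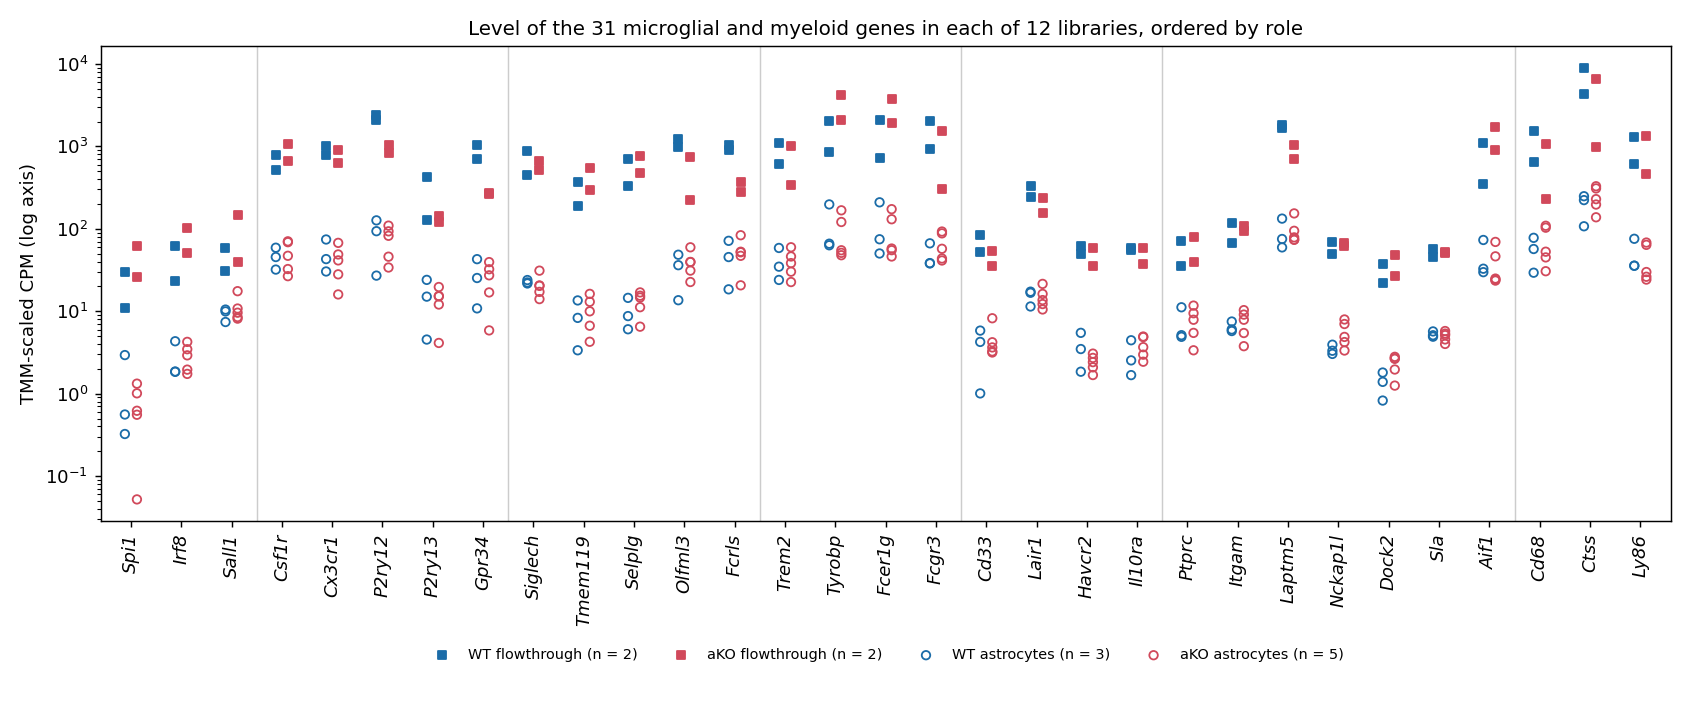
TMM-scaled CPM on a log axis of each of the 31 genes (x axis, grouped by role) in each library. Filled squares are flowthrough and open circles are astrocytes, in blue for WT and in red for aKO. For every gene the 4 squares lie above the 8 circles, while blue and red overlap for most genes.

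Per length, using the deposited RPKM, the order of the members in flowthrough was led by Ctss, Tyrobp and Fcer1g with 3508 ± 2298, 3400.4 ± 1644 and 2216 ± 1048 RPKM (SD, n = 4). They encode the lysosomal protease cathepsin S and a pair of adaptors with activating tyrosine motifs. At the other end were Sla, Ptprc and Dock2 with 4.98 ± 0.595, 2.77 ± 0.891 and 2.56 ± 0.625 RPKM. Of the 30 pairs of neighbours in this order, 28 had overlapping ranges over the 4 libraries. Only Lair1 above Cd33 and Sla above Ptprc were neighbours without overlap, so the order separates its ends and not neighbours. RPKM divides by the exon length of the whole gene, which is 17763 bases for Ptprc, 11425 for Dock2 and 9186 for Sla. Their longest transcripts have 5740, 6409 and 6572 bases, so the places at the lower end, including Sla above Ptprc, depend on the length used. The same 3 genes led in astrocytes, with 172 ± 52.2 RPKM for Ctss, 173 ± 87.4 for Tyrobp and 127 ± 67.8 for Fcer1g (SD, n = 8).

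Flowthrough values of a gene are listed in the order WT 201, WT 202, aKO 203, aKO 205. Among the transcription factors, Spi1, which encodes PU.1, had 29.8, 10.9, 25.8 and 61.9 CPM in flowthrough and between 0.0522 and 2.94 CPM in astrocytes (median 0.5899, n = 8). Irf8, a partner of PU.1 on composite sites, had 62.4, 23.4, 50.6 and 103 CPM and an astrocyte median of 2.44 CPM. In flowthrough both were lowest in WT 202 and highest in aKO 205. Sall1, a zinc finger factor that maintains microglial identity, had 58.3, 30.6, 39.6 and 145 CPM in flowthrough and 7.399 to 17.5 CPM in astrocytes (median 9.77). It also peaked in aKO 205, and its astrocyte level was the nearest of all members to its flowthrough level.

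Among the receptors for growth factors, chemokines and nucleotides, P2ry12, the ADP receptor that steers microglial processes to injury, had the highest flowthrough mean with 2376, 2068, 1039.9 and 832 CPM in flowthrough. Its astrocyte values ran from 27.04 to 126 CPM (median 87.7). In aKO 205 it lay below Csf1r and Cx3cr1, and both WT flowthrough libraries lay above both aKO libraries. Gpr34, a receptor for lysophosphatidylserine, had 1027, 697, 274 and 264 CPM, again with both WT libraries above both aKO libraries, and 5.85 to 42.8 CPM in astrocytes. P2ry13, the ADP receptor gene beside P2ry12 on chromosome 3, had 129, 422, 122 and 144 CPM, a value far above the others in WT 202 alone. Csf1r, the receptor for CSF1 and IL-34, had 787, 519.6, 656 and 1059 CPM, and Cx3cr1, the fractalkine receptor, 787, 1002, 634 and 914 CPM, with WT and aKO interleaved for each. The astrocyte medians of Csf1r and Cx3cr1 were 46.2 and 42.1 CPM. P2ry12 and P2ry13 lie within Med12l, and Gpr34 within Cask, on the opposite strand. Csf1r, Cx3cr1, Il10ra, Dock2 and Sla also overlap genes on the opposite strand, and whether reads were counted by strand is not given. Reads of those neighbours may therefore be included.

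Among the surface and secreted identity genes, Siglech (chr7:55768178-55778925, plus strand, GRCm38), a lectin of microglia and plasmacytoid dendritic cells, had 880.2, 452, 669 and 513 CPM in flowthrough and 14.03 to 31.1 CPM in astrocytes. Tmem119 (chr5:113793729-113800516), a transmembrane protein used as a microglial marker, had 367, 190.4, 297 and 547 CPM and an astrocyte range of 3.36 to 16.2 CPM. Selplg (chr5:113817798-113830501), the P-selectin ligand, lies near Tmem119 on the same strand. It had 697, 332, 470.1 and 769.5 CPM and 6.04 to 16.9 CPM in astrocytes, and both genes were lowest in WT 202 and highest in aKO 205. Olfml3, a secreted glycoprotein, had 1242, 981, 735 and 226 CPM and Fcrls, an Fc receptor-like protein of mouse microglia, 902, 1026, 367 and 277 CPM. Olfml3 and Fcrls were higher in both WT than in both aKO flowthrough libraries, unlike Tmem119 and Selplg.

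Among the activating receptors and adaptors, Trem2 had 1083, 603, 1011 and 342 CPM in flowthrough and 22.6 to 59.7 CPM in astrocytes. Its adaptor Tyrobp had 2031, 853, 2069 and 4171 CPM and 47.8 to 197 CPM. The receptor was lowest in aKO 205 and the adaptor was highest there. Fcer1g, the common gamma chain of Fc receptors, had 2096, 722, 1899.6 and 3699 CPM, the same library order as Tyrobp except that WT 201 passed aKO 203. Fcgr3, the low-affinity IgG receptor that signals through that chain, had 2052, 938, 1517 and 305 CPM, the opposite pattern to its own adaptor in aKO 205.

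The regulatory receptors were rarer. Lair1 had 333, 244, 237 and 154 CPM in flowthrough, and Cd33, a sialic acid-binding lectin, had 84.9, 52.97, 54.4 and 35.4 CPM. Havcr2 (TIM-3) had 61.7, 49.7, 35.5 and 57.8 CPM and Il10ra, the ligand-binding chain of the interleukin-10 receptor, 58.3, 54.7, 37.8 and 58.05 CPM. In astrocytes the medians of these 4 ranged from 2.56 (Havcr2) to 14.9 CPM (Lair1).

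Of the genes of leukocyte adhesion, cytoskeleton and signalling, Laptm5, a lysosomal protein that lowers antigen receptor levels, had the highest flowthrough mean with 1804, 1671, 1049.7 and 696 CPM, and Aif1, the actin-bundling protein IBA1, had 1099.6, 351, 897 and 1703 CPM. Aif1 passed Laptm5 in aKO 205. Laptm5 was lower in both aKO flowthrough libraries, and Aif1 was lowest in WT 202. Ptprc, the phosphatase CD45, had 70.8, 35.6, 39.5 and 80.3 CPM in flowthrough and 3.36 to 11.7 CPM in astrocytes. Itgam, the integrin chain CD11b, had 119, 67.2, 93.5 and 107 CPM. The adaptor Sla, which damps receptor signalling, had the smallest relative spread in CPM, with 57.2, 45.1, 51.2 and 52.4 CPM in flowthrough and 4.01 to 5.75 CPM in astrocytes. As a share of the members' sum, Siglech varied least, with a coefficient of variation of 7.72% in flowthrough and 15.2% in astrocytes, against 17.7% and 24.7% for Sla. Nckap1l, the haematopoietic subunit of the WAVE actin complex, and Dock2 had flowthrough medians of 64.2 and 32.1 CPM.

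Of the lysosomal and endotoxin receptor genes, Ctss had 9032, 4254, 6509 and 994 CPM in flowthrough and 107 to 328 CPM in astrocytes. Cd68, a lysosomal membrane glycoprotein, had 1547, 642, 1081 and 227 CPM. Ly86, which encodes MD-1, the partner of the endotoxin-related receptor RP105, had 1279.7, 617, 1332 and 468 CPM. All 3 were lowest in aKO 205 and, among the other 3 libraries, lowest in WT 202.

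The size of the difference between fractions varied among the members. Log2 estimates of astrocytes against flowthrough, weighting both genotypes equally, were below 0 for 31 of 31 members, with a median of -4.22. The median over all 20637 genes tested was 0.07, and 8.52% of all genes were called lower in astrocytes. That is 1759 genes lower against 1758 higher, and 1323 lower against 2288 higher when libraries were scaled by total counts. Every flowthrough library lay above every astrocyte library for 31 of 31 members, against 5.93% of all genes, and since members were picked for this contrast nothing is read from it. The 4 lowest estimates were those of Selplg (-5.65), Tmem119 (-5.22), Spi1 (-5.01) and Siglech (-4.86). The 4 highest were those of Fcrls (-3.54), Sla (-3.33), Ptprc (-2.94) and Sall1 (-2.67). SEs of these 8 estimates ran from 0.24 to 0.65.

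Within an animal, the astrocyte level can be written as a percentage of the flowthrough level. Selplg stood at 2.08, 1.82, 1.38 and 1.45% in animals 201, 202, 203 and 205, a mean of 1.69% ± 0.328 (SD, n = 4). Tmem119 stood at 2.26, 1.77, 1.43 and 1.82%, and Siglech at 2.47, 4.94, 2.57 and 2.74%. Csf1r was higher in each of the 4 animals, at 7.49, 6.16, 7.17 and 6.498%, and varied little. Ptprc stood at 15.8, 13.8, 13.8 and 14.6%, with its lowest animal above the highest of Csf1r. Sall1 stood at 17.98, 24.2, 24.2 and 12.04%. Trem2 at 3.21, 3.98, 2.23 and 8.84% and Tyrobp at 3.25, 7.39, 2.31 and 1.32% varied more among animals than Siglech, Tmem119 or Csf1r. The widest relative spread was that of Cd68, at 3.67, 4.57, 2.83 and 23.3%, where animal 205 alone lay above 5%. The median over members was 4.17% in animal 201, 4.94% in 202, 6.45% in 203 and 7.93% in 205.

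**Figure D2:**
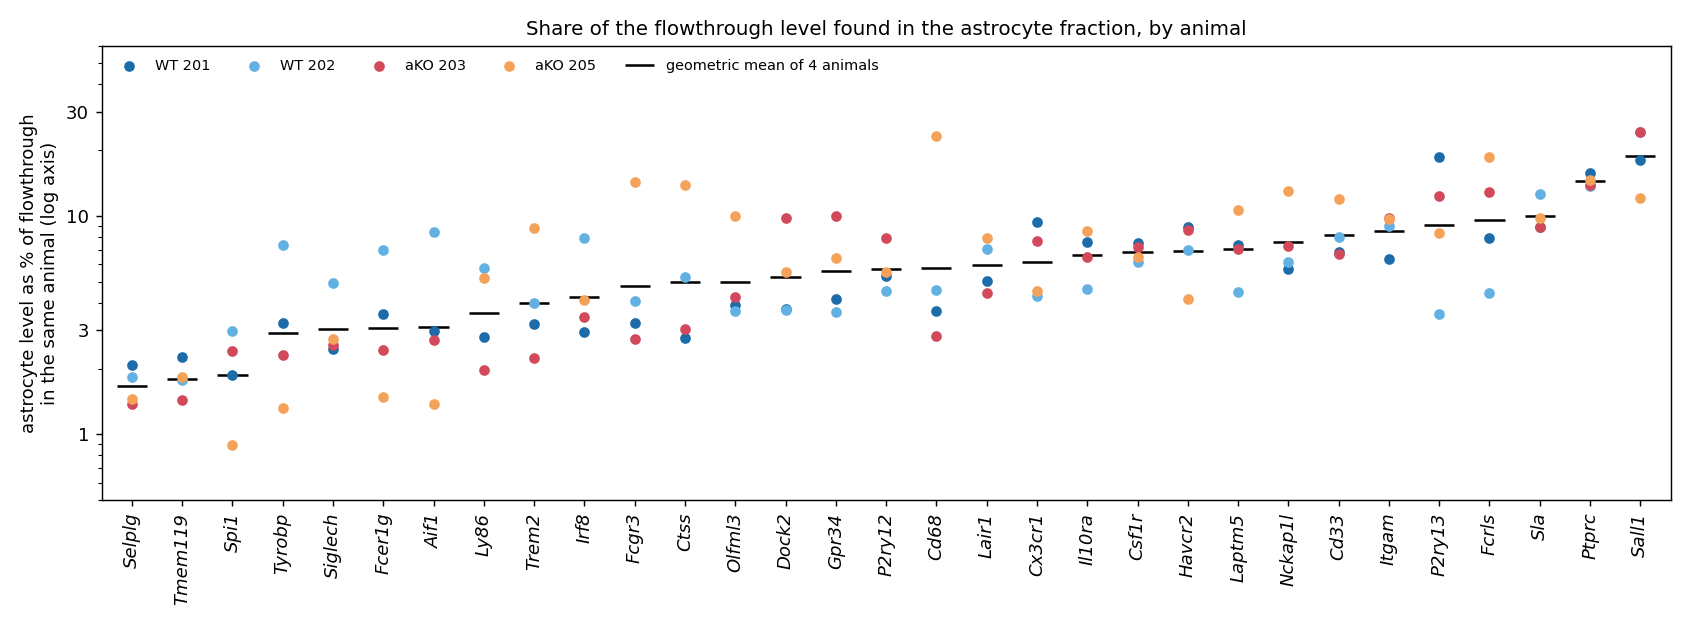
Astrocyte level of each gene as a percentage of the flowthrough level in the same animal (log axis), in order of the geometric mean over 4 animals (black bar). Dots are animals. Selplg, Tmem119 and Spi1 lie lowest and Ptprc and Sall1 highest, and for Cd68, Ctss and Fcgr3 the orange dot of aKO 205 stands above the other 3.

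The members did not keep fixed proportions from one flowthrough library to the next. In aKO 205, 11 members had their highest flowthrough value (Selplg, Csf1r, Dock2, Ptprc, Tmem119, Aif1, Irf8, Fcer1g, Tyrobp, Spi1 and Sall1) and 12 had their lowest (Ctss, Fcgr3, Cd68, Olfml3, Trem2, Fcrls, Gpr34, Ly86, Laptm5, P2ry12, Cd33 and Lair1). Of all genes tested, 36.9% were highest and 31.8% lowest in that library, shares near those of the members, so these counts are not particular to them. The SD over members of the log2 deviation of this library from the mean of the other flowthrough libraries was 1.25, against 1.01 over all genes. Taken in the same way, WT 201, WT 202 and aKO 203 had 0.513, 0.878 and 0.528 over members, near the 0.601, 0.856 and 0.512 over all genes. WT 201 was highest for 16 members and lowest for none, where 14.9% of all genes were highest and 21.6% lowest in it. WT 202 was lowest for 15 members, against 31.5% of all genes. Scaling by total counts instead of TMM factors gave 9 members highest and 15 lowest in aKO 205, and 10 lowest in WT 202.

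Some measures of libraries and transcripts are set beside these values. Ttr, a choroid plexus transcript, took 32.1% of the counts in flowthrough aKO 205, against 8.17% to 19.8% in the other 3. The median GC content was 51.7% for transcripts of the 11 members highest there and 48.2% for those of the 12 lowest. Their ranges overlapped (39.4% to 59.1% and 37.1% to 56%), and the 8 members in between had the lowest median, 47.2%. The rank correlation of that library's log2 deviation with GC content was 0.36 over members and 0.13 over all genes. Flowthrough WT 202, lowest for 15 members, had a summed level of 12 astrocyte markers of 5113 CPM, against 266 to 1646 CPM in the others. The part of these in the members' values was not tested.

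**Figure D3:**
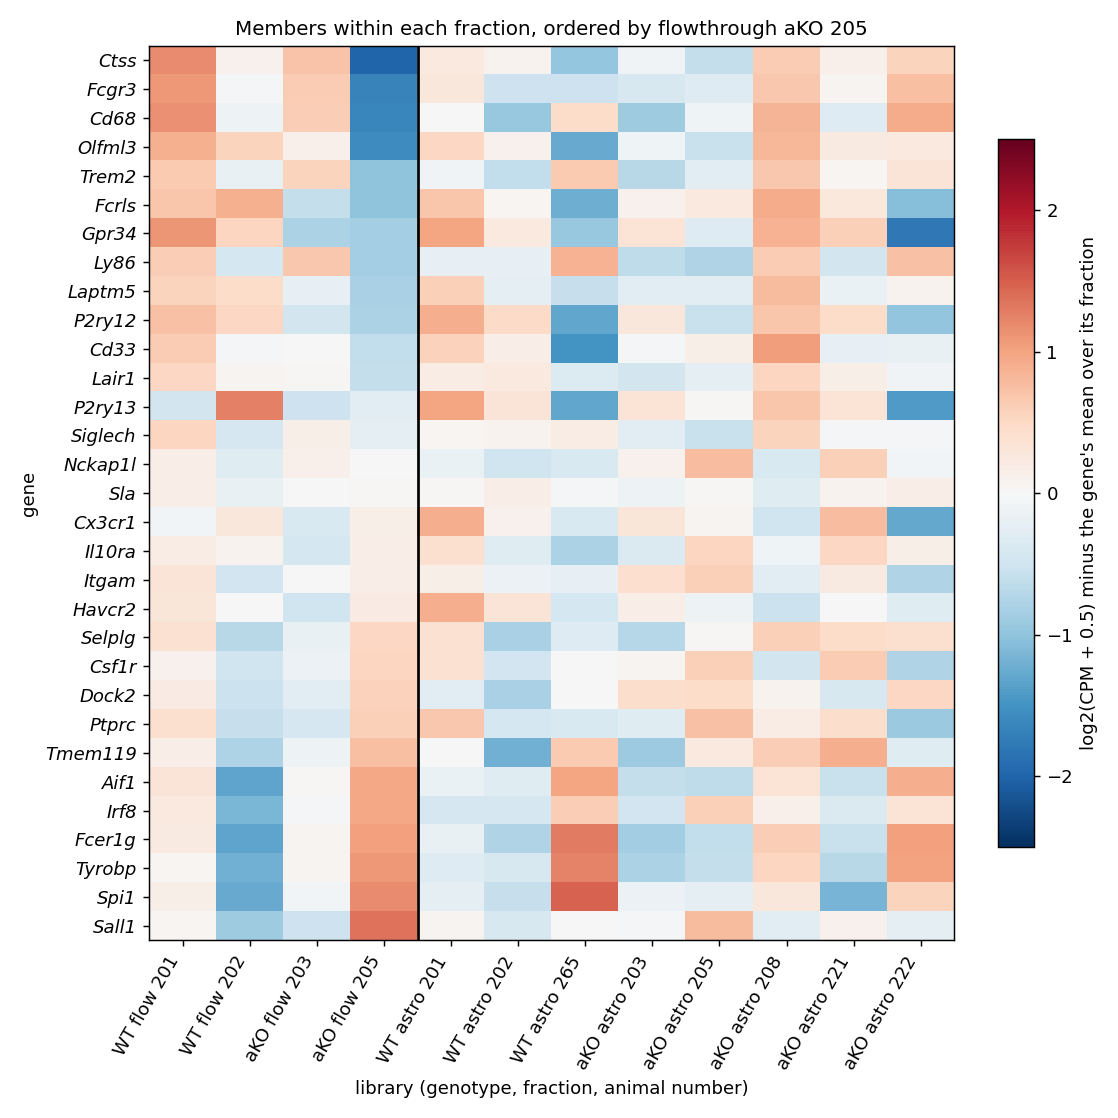
Log2(CPM + 0.5) of each gene (rows, ordered by flowthrough aKO 205) minus its mean over the libraries of the same fraction, in red above and in blue below that mean. Columns are the 4 flowthrough libraries, left of the black line, and the 8 astrocyte libraries. The aKO 205 flowthrough column runs from Ctss at the blue end to Sall1 at the red end, and the astrocyte columns WT 265 and aKO 222 show Tyrobp, Fcer1g and Aif1 in red with P2ry12, P2ry13 and Gpr34 in blue.

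Among the 8 astrocyte libraries, WT 265 and aKO 222 both lay above the other 6 libraries for Ly86, Aif1, Fcer1g, Tyrobp and Spi1, and both below them for Fcrls, Gpr34, P2ry12 and P2ry13. Of all 18950 genes tested there, 11.8% lay above and 16.1% below in this way, so 5 and 4 of 31 members are near the background. Tyrobp was 197 and 167 CPM in WT 265 and aKO 222 and 47.8 to 121 CPM in the others, and P2ry12 was 27.04 and 33.9 CPM there and 45.9 to 126 CPM in the others. WT 265 had the highest Ttr share of the astrocyte libraries, 17.0%, and aKO 222 the highest share of mitochondrially encoded genes, 36.5%. Their part was not tested.

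Genes around the members in the same pathways were compared between fractions with edgeR's quasi-likelihood test. These lists were chosen with earlier results of these data known, so they are not independent of this contrast, and 17.0% of all 20637 genes were called in either direction (3517 genes, and 5951 with the animal as a block over the 8 libraries of 4 animals). Of 32 other microglial genes, 29 were lower in astrocytes and 0 were higher. Rgs10, a regulator of G protein signalling, averaged 558 CPM ± 194 in flowthrough (SD, n = 4) against 38.7 CPM ± 5.79 among astrocyte libraries (SD, n = 8), for a log2 difference of -3.85 ± 0.34 (SE; adjusted p = 2.95e-06). The oxysterol receptor Gpr183 and the Golgi protein Golm1 differed by -4.46 and -3.44. The list members without a call were Adgrg1, Bin1 and Sparc.

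Of 12 further myeloid transcription factors, 10 were lower in astrocytes and 0 higher, among them Irf5 (-4.16 ± 0.36, SE), Ikzf1 (-4.46 ± 0.42) and Runx1 (-3.53 ± 0.46). Bhlhe41 and Smad3 were not called. Of 29 signalling partners of the receptors, 27 were lower and 0 higher. They included the kinase Btk (-3.55 ± 0.30), the integrin chain Itgb2 (-3.72 ± 0.31), which pairs with CD11b, and the lipid phosphatase Inpp5d (-4.13 ± 0.38), which opposes signals from TYROBP. Elmo1 and Dok2 were not called.

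Genes that microglia induce around damage were mixed: of 20, 8 were lower in astrocytes and 2 were higher. Cst7, Clec7a and Ctsz were lower by log2 differences of -4.81, -2.29 and -2.03, and Axl and Ank were higher by 1.03 and 1.07. Apoe averaged 1104 CPM ± 338 in flowthrough (SD, n = 4) against 700.5 CPM ± 575 among astrocyte libraries (SD, n = 8) and was not called. The median over this list was -0.95, against -3.57 over the other microglial genes.

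Markers of other leukocytes were present beside the members in flowthrough. The summed level of 10 neutrophil markers was 4717, 2720.4, 7285 and 5248 CPM in flowthrough and 110 to 595 CPM in astrocytes, and 10 of 10 were called lower in astrocytes. Monocyte markers (6 of 7 lower), T and NK cell markers (9 of 9) and B cell markers (5 of 5 tested, 6 listed) went the same way. Border macrophage markers did not: 1 of 10 (Stab1) was called lower in astrocytes and 0 when scaled by total counts, where the list's median turned from -0.13 to 0.17, with a summed level of 254 to 523 CPM in flowthrough and 71.0 to 325 CPM in astrocytes. No marker of these lists was at 0 in all libraries of a fraction. Border macrophages express Csf1r, Ptprc, Fcer1g, Tyrobp, Cd68 and Ctss too. For every 100 CPM of the members there were 1.04 to 2.74 CPM of border macrophage markers in flowthrough and 7.49 to 37.2 CPM in astrocytes. Some members were picked for low astrocyte levels, which raises this ratio there by choice, so nothing is read from it. The part of these cells in the levels of the members was not tested.

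**Figure D4:**
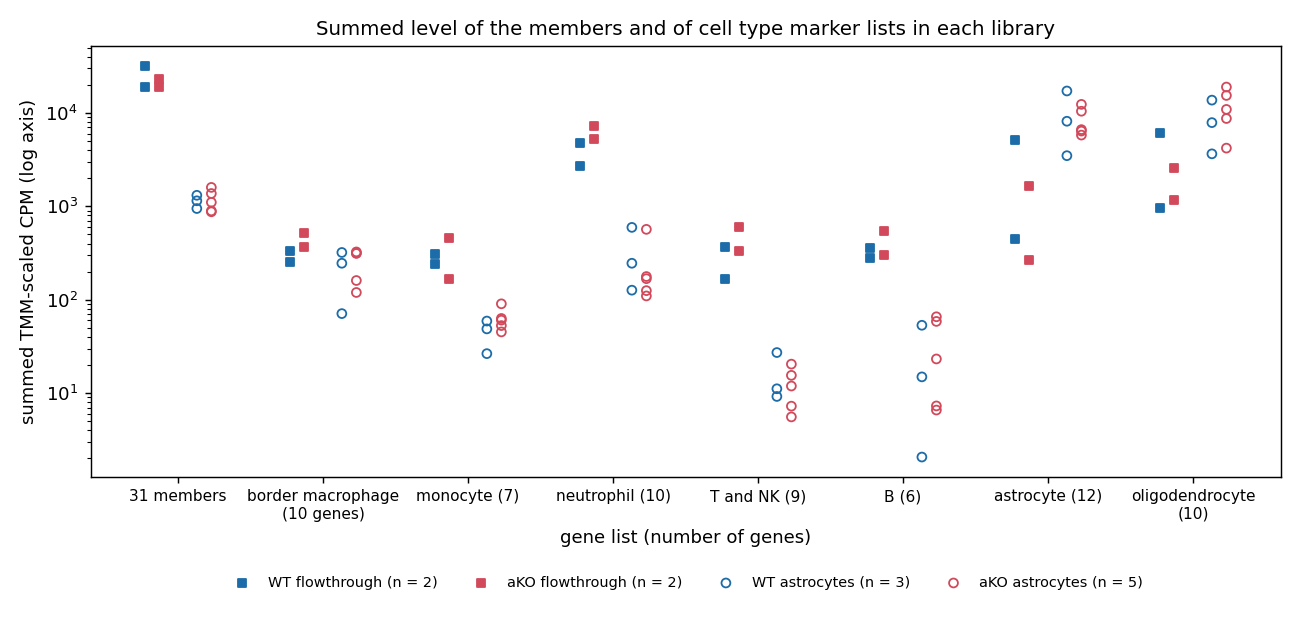
Summed TMM-scaled CPM (log axis) of the 31 members and of marker lists of other cell types in each library, with the number of genes in each list. Filled squares are flowthrough and open circles astrocytes, in blue for WT and in red for aKO. Members and neutrophil, T and NK cell and B cell markers separate the fractions, whereas border macrophage markers overlap.

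Genotype was compared in astrocytes first, over 5 aKO and 3 WT libraries. By edgeR's quasi-likelihood test 0 of 31 members were called at an adjusted p under 0.05, and 0 had an unadjusted p under 0.05. DESeq2 and limma voom also called 0, with 0 at an unadjusted p under 0.05. Over all 18950 genes, 0.0264% were called and 1.58% had an unadjusted p under 0.05. Estimates of aKO against WT were above 0 for 17 members and below 0 for 14, with a median of 0.10, and 0.02 over all genes. No member had groups that did not overlap, against 0.976% of all genes higher in aKO and 0.496% lower.

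The smallest p among members in astrocytes belonged to Nckap1l. It had 3.93, 3.04 and 3.32 CPM in WT 201, 202 and 265 and 4.88, 7.94, 3.34, 6.997 and 4.23 CPM in aKO 203, 205, 208, 221 and 222, and the groups overlapped. Its log2 fold change was 0.68 ± 0.41 (SE; adjusted p = 0.9997). Dock2, which like Nckap1l drives actin assembly in leukocytes, had 1.39, 0.825 and 1.81 CPM in WT and 2.65, 2.69, 1.96, 1.25 and 2.800 CPM in aKO, 0.75 ± 0.50 (adjusted p = 0.9997). Havcr2 had 5.47, 3.48 and 1.85 CPM in WT and 3.06, 2.41, 1.68, 2.72 and 2.09 CPM in aKO, -0.57 ± 0.43 (adjusted p = 0.9997). For Fcgr3 the fold change was 0.44 ± 0.39 (adjusted p = 0.9997). All of these groups overlapped.

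Siglech, Tmem119, Trem2 and Tyrobp are given by rule. The genes before them were picked for their small p, so the sizes of both sets are not compared. Siglech had 21.7, 22.3 and 23.9 CPM in WT and 17.2, 14.03, 31.1, 20.5 and 20.3 CPM in aKO astrocytes, -0.15 ± 0.32 (SE; adjusted p = 0.9997). Tmem119 had 8.31, 3.36 and 13.5 CPM in WT and 4.26, 9.97, 13.02, 16.2 and 6.67 CPM in aKO, 0.23 ± 0.49 (adjusted p = 0.9997). Neither marker separated the genotypes. Trem2 gave -0.019 ± 0.40 and Tyrobp -0.34 ± 0.53 (adjusted p = 0.9997 for each). With astrocyte library 202 counted as aKO, 12 members were above 0 and 19 below, 9 had changed sign and 0 were called. Without WT 265 and aKO 222, 18 were above 0, 9 had changed sign and 0 were called. Without the libraries high in Xist, 221 and 222, the sign of 2 members differed.

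In flowthrough, with 2 aKO and 2 WT libraries, 0 of 31 members were called by edgeR, DESeq2 or limma voom, and 0% of all 20637 genes by edgeR. At an unadjusted p under 0.05 there were 2 members with edgeR and 2 with DESeq2 (Fcrls and Gpr34 with both), and 0 with limma voom, against 3.96% of all genes with edgeR. Estimates were above 0 for 14 and below 0 for 17, with a median of -0.17 (0.07 over all genes). Both aKO libraries lay below both WT libraries for 6 members (P2ry12, Gpr34, Olfml3, Fcrls, Lair1 and Laptm5) and above them for 1 (Tyrobp). Of all genes, 13.6% and 20.0% separated in these directions.

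Fcrls, at 902, 1026, 367 and 277 CPM, had a log2 fold change of -1.58 ± 0.69 (SE; adjusted p = 0.804) in flowthrough. Gpr34, at 1027, 697, 274 and 264 CPM, had -1.68 ± 0.77 (adjusted p = 0.804). Without flowthrough aKO 205 they stood at -1.47 and -1.73, so these 2 estimates kept their size without the library that stood apart. Sall1 gave 1.06 ± 0.58 (adjusted p = 0.804) and -0.24 without that library, a change of sign. Olfml3 gave -1.21 ± 0.70 (adjusted p = 0.804) and -0.68 without it.

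Of the remaining genes named by rule, Siglech gave -0.17 ± 0.55 and Tmem119 0.60 ± 0.71 (SE; adjusted p = 0.941 and 0.835). Trem2 gave -0.32 ± 0.67 and its adaptor Tyrobp 1.11 ± 0.80 (adjusted p = 0.909 and 0.804). Without aKO 205 these were -0.070 for Siglech, 0.014 for Tmem119, 0.18 for Trem2 and 0.44 for Tyrobp. Across all 31 members, 9 changed sign without that library and 0 were called. By role, estimates were above 0 for 3 of 3 transcription factors, 1 of 5 growth factor, chemokine and nucleotide receptors, 2 of 5 identity genes and 2 of 4 activating receptors and adaptors. So were 0 of 4 regulatory receptors, 6 of 7 genes of leukocyte adhesion, cytoskeleton and signalling, and 0 of 3 lysosomal and endotoxin receptor genes. Laptm5, a lysosomal protein counted among those 7, was below 0. Without aKO 205 the numbers above 0 were, in the same order, 2, 0, 1, 3, 0, 2 and 1. The summed neutrophil markers were higher in both aKO (7285 and 5248 CPM) than in both WT flowthrough libraries (4717 and 2720.4 CPM). Of all genes, 20.0% separated in this direction. By gene, S100a8, S100a9, Camp, Retnlg and Ly6g did so, whereas Ngp, Ltf, Elane, Mpo and Mmp8 were lowest in aKO 205. Ngp had 185 CPM there, against 956 to 1747 CPM in the other flowthrough libraries. The part of these markers in the members' values was not tested.

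**Figure D5:**
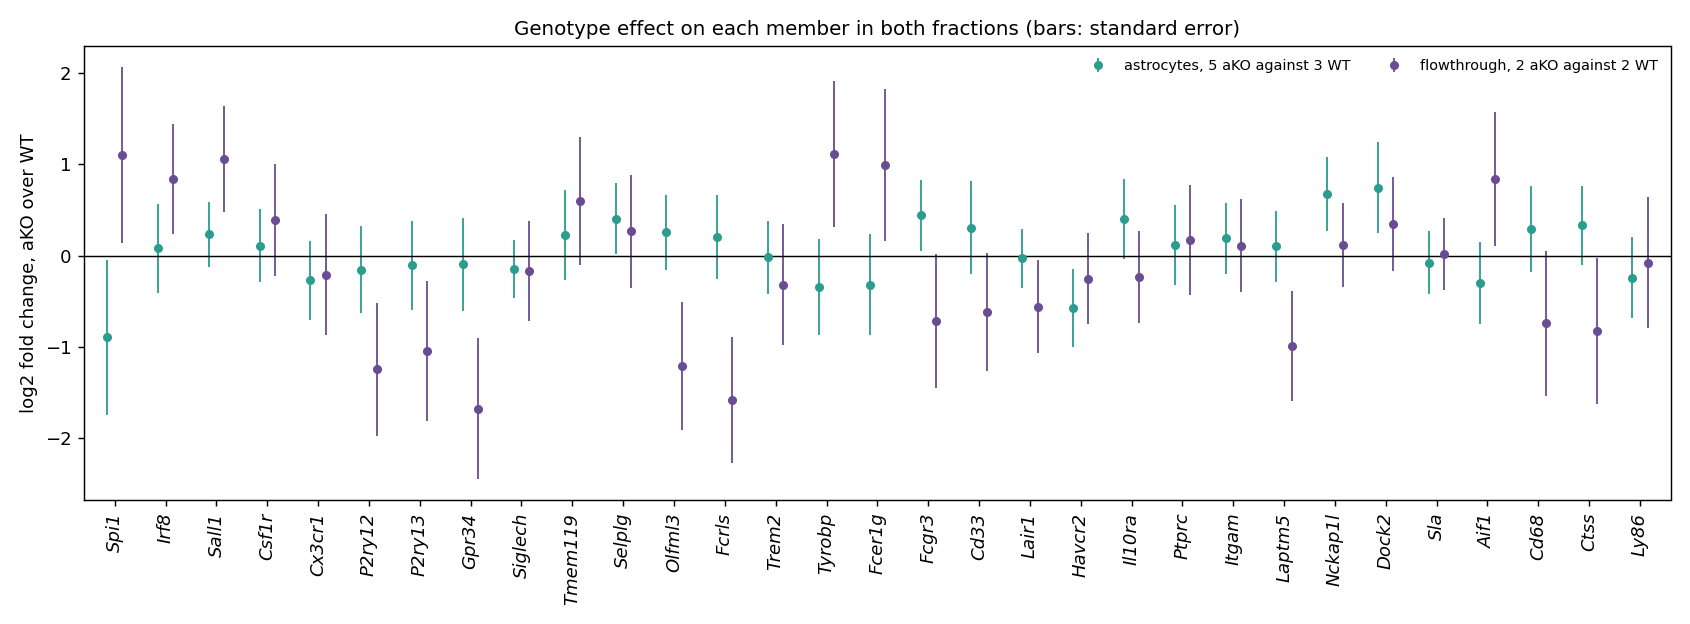
Log2 fold change of aKO over WT for each gene (x axis, by role) in astrocytes (green, 5 against 3 libraries) and in flowthrough (purple, 2 against 2), with standard errors from edgeR. Astrocyte estimates lie between -0.90 and 0.75. Flowthrough estimates lie between -1.68 and 1.11 with wider bars, and none passes the adjusted threshold.

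The difference between both genotype effects was tested directly, as the astrocyte effect minus the flowthrough effect. It was called for 0 of 31 members by edgeR, DESeq2 or limma voom, and for 0% of all genes by edgeR. An unadjusted p under 0.05 was reached by 0 members with edgeR, 1 with DESeq2 (Fcrls) and 0 with limma voom, against 2.42% of all genes with edgeR. Fcrls had the smallest p, with a difference of 1.76 ± 0.85 (SE; adjusted p = 0.956). Olfml3 gave 1.44 ± 0.87, Gpr34 1.57 ± 0.95 and Spi1 -1.93 ± 1.22 (adjusted p = 0.956 for each). Spi1 had only 2 to 70 reads in the astrocyte libraries. Its astrocyte effect was -0.90, and 0.36 without aKO 222 and WT 265. Siglech, Tmem119, Trem2 and Tyrobp gave 0.038 ± 0.68, -0.34 ± 0.87, 0.33 ± 0.83 and -1.41 ± 0.99, with adjusted p of 0.9999, 0.979, 0.978 and 0.956. With the animal as a block, over the 4 animals with both fractions, Fcrls stood at 1.46, Tyrobp at -1.42 and Spi1 at -0.62, and 0 members were called.

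The surrounding pathway genes gave no call by genotype either. In astrocytes 0 of 32 other microglial genes, 0 of 12 myeloid factors, 0 of 29 signalling partners and 0 of 20 damage-associated genes were called by edgeR. At an unadjusted p under 0.05 these numbers were 1 (Bin1), 0, 0 and 0, against 1.58% of all genes. In flowthrough there were again 0 calls in each of these lists. At an unadjusted p under 0.05 there were 4, 0, 0 and 2 genes, against 3.96% of all genes. The 4 were Cst3 (-1.75 ± 0.72, SE), Cd53 (-1.72 ± 0.71), Bin1 (1.76 ± 0.78) and Slc2a5 (-1.40 ± 0.65), and the 2 were the cathepsins Ctsz (-1.58 ± 0.62) and Ctsb (-1.68 ± 0.74), which like the member Ctss are lysosomal proteases. Their adjusted p was 0.804 each.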

How the data were processed

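The deposited files give, per gene and library, read counts, CPM and RPKM computed by the authors. The submitters' processing notes name GRCm38, featureCounts 1.4.6-p5 of Subread, STAR 2.5.1a and bcl2fastq, with no annotation release or strand setting. Deposited CPM and RPKM were checked against the counts, and deposited RPKM served only to order members by level. The 1134 identifiers without a name held at most 0.116% of a library's counts.

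Tests on the deposited counts used edgeR 4.0.16 (R 4.3.3; quasi-likelihood, robust, TMM, filterByExpr with a minimum count of 10 and a minimum total of 15), two-sided, with Benjamini-Hochberg adjustment over all genes tested and a threshold of 0.05. SEs are the log2 fold change over the square root of F. The astrocyte comparison used 8 libraries, and the others a fit of 4 groups to all 12. The test was also run on simulated counts, drawn with no effect of the animal, so that run does not cover fractions that share an animal. Its outcome is not reported here, and nothing is read from it. The numbers in the titles were read as animals, and p-values measure the spread between these samples. The fit to all 12 libraries had no term for the animal, so its p-values treat both fractions of an animal as independent.

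The members and all gene lists were chosen with earlier results of these data known. Every member is described; fold changes with SE and adjusted p are given for the 4 members with the smallest p in a genotype comparison and for Siglech, Tmem119, Trem2 and Tyrobp; of other lists, the counts of calls and up to 4 genes are given, and genes without a call were named after their values were seen. Some genes the rule names are not reported here. Genes said to be highest or lowest in a library were chosen after seeing their values too. A shared number marks 1 animal. Deviations from the mean of the same genotype and fraction correlated between fractions with r of 0.0823, 0.424, 0.166 and 0.404 for animals 201, 202, 203 and 205. With 2 libraries in each flowthrough group, the flowthrough deviations of 201 and 202 mirror each other, as do those of 203 and 205. The 4 values are therefore not independent. Alternatives were other scalings, no filter, DESeq2 1.42.0, limma 3.58.1 voom, each library left out, library 202 as aKO, mitochondrial genes and Ttr left out, other sets of libraries and a block for the animal.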

Additional observations from a re-analysis of the deposited data

Results flagged for a closer look

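Among the 5 aKO astrocyte libraries, the only group large enough to be checked for a sample far from the rest, 3 of 32 quantities (31 members and their summed share) had such a sample, and chance gives about 1 in 20. Sall1 was 17.5 CPM in aKO 205 and 8.14 to 10.8 CPM in the other 4. Cd33 was 8.22 CPM in aKO 208 and 3.16 to 4.21 CPM in the others. Laptm5 was 154 CPM in aKO 208 and 73.7 to 94.5 CPM in the others.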

How the results depend on the processing

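No member was called in any of 18, 20 and 21 alternatives of the genotype comparisons in astrocytes, in flowthrough and of their difference, where the smallest adjusted p was 0.9993, 0.198 (Ctss without flowthrough aKO 203) and 0.294. All 31 members were lower in astrocytes in each of 21 alternatives, with estimates from -5.89 to -2.04. Genes called in astrocytes numbered 5, and 8 without a filter, 14 with DESeq2, 0 with library 202 as aKO, 1 with all 12 libraries in 1 fit, 3 without aKO 222 and WT 265, and 0 to 5 with 1 library left out (0 without WT 201, 2 without aKO 205, 3 without WT 265). In flowthrough 0 became 45 without a filter and 0 to 1 with 1 library left out (1 without WT 201). For the difference 0 became 40 without a filter, 1 with the block for the animal and 1 over the same 8 libraries without it. Between fractions 3517 became 5951 with the block, and 1691 to 4107 with 1 library left out (1691 without flowthrough WT 201 and 2136 without flowthrough aKO 205). Over the alternatives, 10 to 19 members were below 0 in astrocytes, 14 to 22 in flowthrough and 6 to 16 for the difference, and the block led to no call of a member there. Scaled by total counts, 28 of 32 other microglial genes, 9 of 12 myeloid factors and 26 of 29 signalling partners were lower in astrocytes and 0 higher. The cause of these changes was not tested. Signs of uncalled estimates turned. In astrocytes Trem2 was 0.11 by total counts, 0.0059 with voom, 0.012 with all 12 libraries, 0.40 without aKO 222 and WT 265, and -0.29 to 0.47 with 1 library left out. Tmem119 was -0.33 with 202 as aKO and -0.16 to 0.83 with 1 left out, and Tyrobp 0.13 without aKO 222 and WT 265 and -0.72 to 0.50 with 1 left out. In flowthrough, with 1 library left out, Sall1 was -0.24 to 1.67, Siglech -0.58 to 0.32 and Trem2 -1.34 to 0.18. For the difference, Tmem119 was 0.092 by total counts, Trem2 -0.023 with 202 as aKO, and Siglech -0.33 with the block and -0.26 over those libraries without it; with 1 left out, Siglech was -0.44 to 0.44, Tmem119 -0.81 to 0.26 and Trem2 -0.16 to 1.37. Total counts moved the median of all genes to 0.17 in astrocytes, -0.20 in flowthrough, 0.39 for the difference and 0.34 between fractions. Without mitochondrial genes and Ttr the members took 2.86% of flowthrough and 0.176% of astrocyte counts, and the median level kept was 8.25% by total counts, against 5.87% with TMM. With 2 libraries in each flowthrough group, the number of libraries limits the precision.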

Other observations

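Most genes of a list of ligands for microglial receptors were not called between fractions. Of 10 ligand genes, among which Tgfb1, Tgfb2 and Cd200 bind receptors outside the 31 members, 2 were called lower in astrocytes by edgeR (Tgfb1 and Lgals9), 0 were called higher, and the median log2 difference was 0.11 (0.37 by total counts). Lgals9, which encodes galectin-9, a ligand of TIM-3, averaged 214 CPM ± 130 in flowthrough (SD, n = 4) against 36.8 CPM ± 16.6 among astrocyte libraries (SD, n = 8), a difference of -2.57 ± 0.48 (SE; adjusted p = 0.0015). Csf1, a ligand of CSF1R, averaged 11.1 CPM ± 3.24 in astrocytes and 7.47 CPM ± 1.499 in flowthrough (adjusted p = 0.203). Il34, the other ligand of that receptor, averaged 13.2 CPM ± 3.52 and 11.4 CPM ± 6.72, and Cx3cl1, the ligand of CX3CR1, 12.8 CPM ± 3.07 and 9.44 CPM ± 2.39. Neither was called. Tgfb1, which maintains microglial identity, averaged 0.311 CPM ± 0.391 in astrocytes (SD, n = 8) and had 5.49, 1.598 and 6.11 CPM in flowthrough WT 201, WT 202 and aKO 203 but 46.0 CPM in aKO 205. Its difference was -5.02 ± 0.82 (SE; edgeR adjusted p = 0.000562), and -3.93 ± 0.83 without flowthrough aKO 205 (adjusted p = 0.00736).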
